A study of Mus musculus with 4 samples.

Results

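The 9 genes Dio1, Dio2, Dio3, Iyd, Slc5a5, Slc26a4, Tg, Duox1 and Duox2 encode the deiodinases and the proteins that move, store and oxidise iodide. They were taken by name, and their probes were all non-control probes whose RefSeq transcript accession maps to 1 of them. This gave 11 probes of 8 genes, among 56605 probes and 22911 named genes on the array. No probe accession mapped to Duox2, which was not analysed here. Female mice gave dorsal hippocampus RNA once behavioural testing was over, and it was measured on 4 single-colour arrays, 2 from a control group (replicates 2 and 3) and 2 from a group given a 20-fold iodine intake (replicates 2 and 3). The labels name no strain, genotype, age or length of intake. Since they do not state whether a replicate is an animal of its own, p-values describe the spread among these 4 samples alone, and part of that spread may be technical. The comparison asks whether excess iodine altered the expression of these genes in the brain.

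Deiodinases are selenoenzymes that remove iodine from thyroid hormones. In the brain, Dio2 of astrocytes and tanycytes makes the active hormone triiodothyronine from thyroxine, and Dio3 of neurons inactivates both. The other genes are best known from the thyroid follicle, where the symporter Slc5a5 takes up iodide, the exchanger Slc26a4 (pendrin) passes it to the lumen, dual oxidases supply hydrogen peroxide for its attachment to thyroglobulin (Tg), and Iyd recovers iodide from unused iodotyrosines.

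The upstream sequences of the 3 deiodinase genes are shown because the family members differ in the base composition of the region where transcription starts, a feature the choice of genes did not use. Each line gives the 250 bases before the RefSeq start in build GRCm38.p6, read 5′ to 3′ on the gene's strand, with capitals marking the cAMP response element TGACGTCA and the TATA box core TATAAA. The windows are chr4:107307169-107307418 (minus strand) for Dio1, chr12:90739039-90739288 (minus strand) for Dio2 and chr12:110278980-110279229 (plus strand) for Dio3.
Dio1: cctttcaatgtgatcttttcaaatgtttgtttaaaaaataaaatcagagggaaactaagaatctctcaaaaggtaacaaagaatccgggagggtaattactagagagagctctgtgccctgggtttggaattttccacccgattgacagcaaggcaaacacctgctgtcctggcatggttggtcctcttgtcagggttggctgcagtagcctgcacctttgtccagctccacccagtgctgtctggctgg
Dio2: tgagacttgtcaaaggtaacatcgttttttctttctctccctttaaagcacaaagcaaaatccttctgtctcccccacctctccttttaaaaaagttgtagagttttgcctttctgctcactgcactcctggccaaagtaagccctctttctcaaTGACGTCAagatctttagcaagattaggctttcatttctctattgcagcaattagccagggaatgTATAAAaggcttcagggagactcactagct
Dio3: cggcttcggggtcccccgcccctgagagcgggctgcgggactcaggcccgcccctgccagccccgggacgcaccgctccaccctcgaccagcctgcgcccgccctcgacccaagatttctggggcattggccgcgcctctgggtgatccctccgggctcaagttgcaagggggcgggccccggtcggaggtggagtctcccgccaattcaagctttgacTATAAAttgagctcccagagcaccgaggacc

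The Dio3 window was richest in G and C of the 3, at 69.6% with 21 CpG dinucleotides, against 46.8% with 2 for Dio1 and 41.6% with 2 for Dio2. The median of 32851 RefSeq windows of the same length was 52.4% with 6 CpG. Of the 8 members with a window in the table (Tg was not matched), Slc5a5 was the other GC-rich one, at 66.4% with 21 CpG. Both strands were searched for 4 motifs. TGACGTCA, which reads the same on both strands, was found in Dio2 alone of the 8, beginning 95 bases before the start, and in 1.55% of all windows. TATAAA was found in Dio2, Dio3, Iyd and Slc26a4, beginning 29 to 31 bases before the start, and in 12.4% of all windows. The GC box GGGCGG was found in Dio3 and Slc5a5 and in 32.7% of all windows, and the thyroid hormone receptor half-site AGGTCA in none of the 8 and in 14% of all windows. The positions of the 4 motifs did not overlap in any member. A match is a description of letters, and binding was not measured.

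The 4 arrays were close in brightness, although both iodine arrays were dimmer than both controls. Their 75th percentile of signal was 158.8 and 154.2 on the control arrays and 149.7 and 144.3 on the iodine arrays. On each array 66.3 to 67.0% of probes were well above background by the flag of the Agilent Feature Extraction software. All 4 arrays lay on 1 slide, with controls in slide columns 1 and 2 and iodine samples in columns 3 and 4, so that slide position and group cannot be told apart. Excitatory neuron markers of the hippocampus were well above background in 6 of 6 genes. The thyroid follicle markers Tshr, Pax8 and Foxe1 were well above background on no array. The summed signal of 6 choroid plexus genes was 25107 and 22276 on the control arrays and 8238 and 41832 on the iodine arrays, on replicates 2 and 3 in that order, and it was lowest on iodine replicate 2 and highest on iodine replicate 3. That of 6 meningeal fibroblast genes was 3042 and 3879 on the control arrays and 2217 and 3533 on the iodine arrays. The summed signal of the 4 thalamus genes was highest on iodine replicate 3 (1244, against 649.5 to 707 elsewhere), although Slc17a6, 1 of the 4, was highest on control replicate 2. That of the 3 fitted of 5 ependyma and tanycyte genes (Foxj1, Tmem212 and Ccdc153) was 392 to 529. The rest of that list, Rax among them (well above background on 1 array), had no fitted probe and are not in the sum. In bulk tissue, fewer cells of a type and less RNA per cell cannot be told apart.

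Transcripts of 6 of the 9 genes were detected in the hippocampus on all 4 arrays: Dio1, Dio2, Dio3, Slc5a5, Slc26a4 and Tg. Iyd and Duox1 were not well above background on any array. By probe, 6 of 11 were well above background on all 4 arrays (54.5%, against 63.8% of all probes), 1 on 3 arrays and 4 on none, as were 30.3% of all probes. No member passed limma's adjusted p of 0.05 between the groups, and 0 of the 38231 probes fitted did (0%, smallest adjusted p = 0.518). With an unadjusted p under 0.05 there was 1 member probe of the 7 fitted (14.3%), the Tg probe, which was lower in iodine, against 3448 of all probes (9.02%, of which 3.14% lower and 5.88% higher). Both iodine arrays lay on the same side of both control arrays in 2 of the 7 member probes (28.6%), lower each time, against 41.6% of all probes (18.5% lower and 23.2% higher). The median log2 difference, 20-fold iodine minus control, was -0.01 over the 7 member probes, 5 of them lower, and 0.01 over all fitted probes, of which 47.6% were lower. With 2 arrays per group the smallest two-sided p of an exact permutation test is 0.333, so single-gene tests rest on the spread that limma shares across probes.

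**Figure D1:**
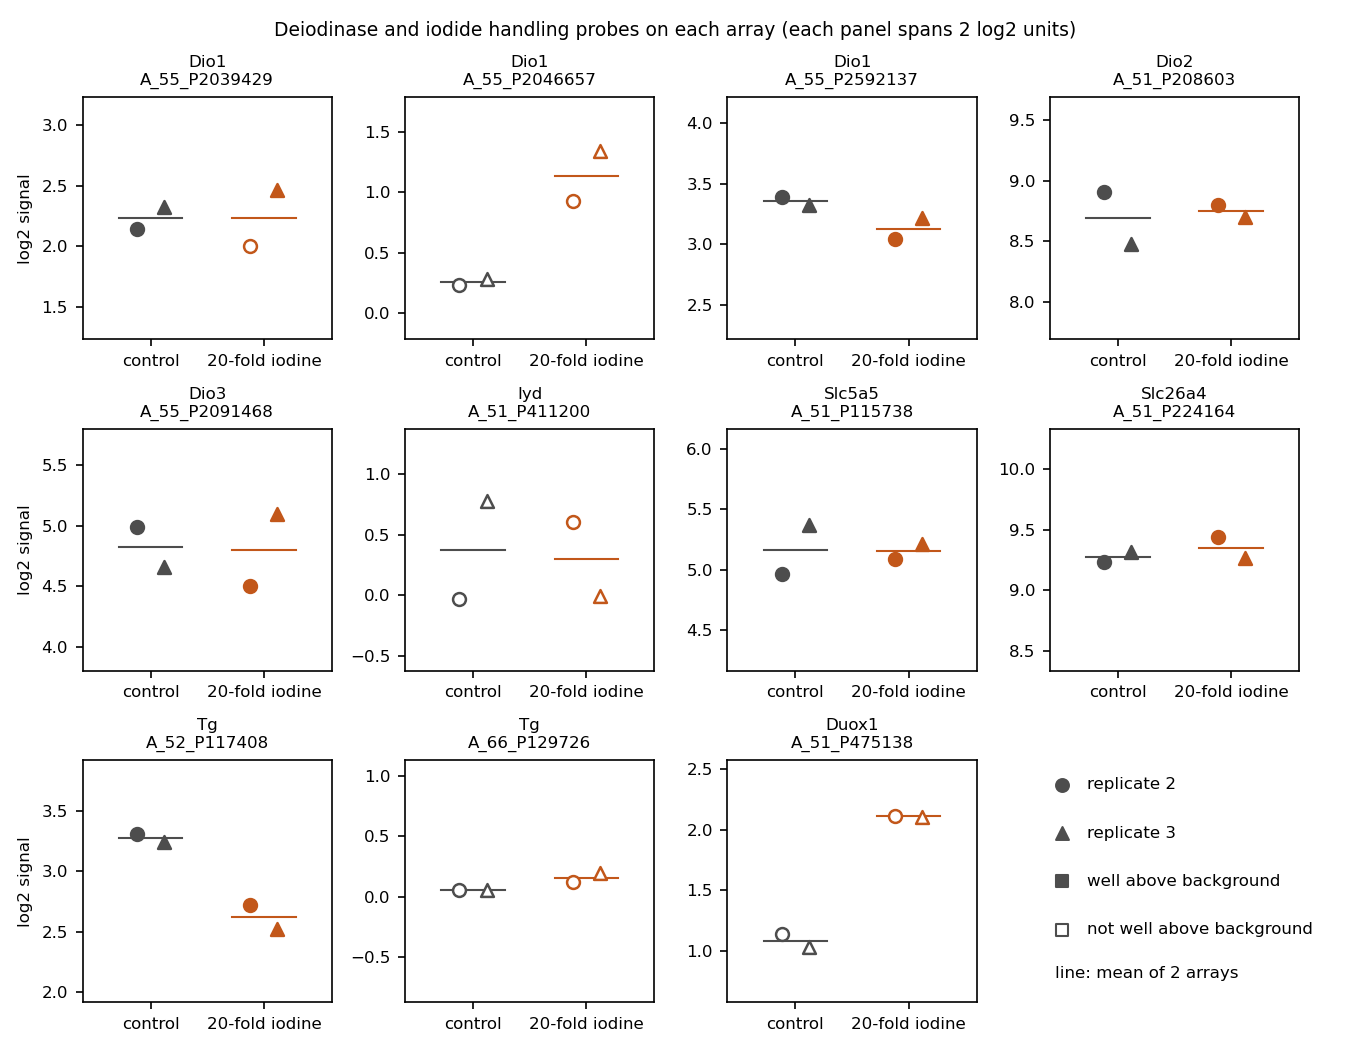
Log2 signal of the 11 member probes on each array, 1 panel per probe, each spanning 2 log2 units. Circles are replicate 2 and triangles replicate 3, grey for control and orange for 20-fold iodine; filled symbols are well above background and lines are means of 2 arrays. The filled Tg symbols of the iodine group, at 2.72 and 2.52, lie below those of the control group, at 3.31 and 3.24, while Dio2, Dio3, Slc5a5 and Slc26a4 overlap between groups.

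Dio2, the activating deiodinase, was clearly detected and did not separate the groups. Log2 signals here are centred on each array's 75th percentile, with the mean percentile added back. Those of Dio2 were 8.90 and 8.47 in control replicates 2 and 3 and 8.80 and 8.70 in iodine replicates 2 and 3. The raw spots had median pixel intensities of 553, 391.5, 472 and 424.5 on the same arrays, over a local background of 15. Control replicate 2 was the highest and control replicate 3 the lowest, so both iodine arrays lay inside the range of the controls. The difference was 0.06 (95% confidence interval -0.40 to 0.52, n = 2 per group, adjusted p = 0.940 by limma), an interval that spans a fold of 0.758 to 1.43. The controls alone differed by 0.43. Without control replicate 3 the difference was -0.15, and without control replicate 2 it was 0.28. The 6 astrocyte markers were all well above background and did not differ in 1 direction. Of their 11 probes, 6 were higher and 5 lower in iodine, with a median difference of 0.13, and the 4 with an unadjusted p under 0.05 (2 of Gfap and 2 of Gja1) were higher, while none passed the adjusted threshold. The lower ones were both Aldoc probes, those of Aldh1l1 and Slc1a3, and another Gja1 probe, A_52_P174915 (-0.09). All 11 probes had no overlap between the groups, against 41.6% of all fitted probes. Both Aldoc probes were brighter than every other probe of the list and so weigh most in its summed signal. That sum was 49940 and 49596 on the control arrays and 46642.5 and 44412 on the iodine arrays. The part of these in the Dio2 value was not tested.

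Dio3, the inactivating deiodinase, was detected at modest signal and also did not separate the groups. Its log2 signals were 4.99 and 4.66 on the control arrays and 4.50 and 5.10 on the iodine arrays, with spots of 52, 42.5, 38.5 and 50 over a local background of 15 to 16. Iodine replicate 2 was the lowest array and iodine replicate 3 the highest, and the iodine pair alone spanned 0.59. The difference was -0.02 (95% confidence interval -0.69 to 0.64, adjusted p = 0.986 by limma), an interval that spans a fold of 0.621 to 1.56. The sign turned without iodine replicate 2 (0.27) and without control replicate 2 (0.14), and with normexp background correction (0.014). The same 2 iodine arrays were the lowest and the highest for the summed choroid plexus signal given above, and the part of this in the Dio3 value was not tested.

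Dio1, the deiodinase best known from liver, kidney and thyroid, has 3 probes to 1 transcript, and they did not give 1 answer. Probe A_55_P2592137 was well above background on all 4 arrays, with log2 signals of 3.39 and 3.33 on the control arrays and 3.04 and 3.22 on the iodine arrays. Both iodine arrays lay below both controls, but the difference of -0.23 (95% confidence interval -0.50 to 0.04) did not pass (unadjusted p = 0.080, adjusted p = 0.595 by limma). It ranged from -0.32 to -0.14 when single arrays were left out, the latter without iodine replicate 2, and was 0.0030 with normexp background correction. Probe A_55_P2039429 was well above background on both control arrays and on iodine replicate 3 alone of the iodine arrays. It had log2 signals of 2.14 and 2.33 on the control arrays and 2.00 and 2.46 on the iodine arrays. Its groups overlapped, and its difference was 0.00 (95% confidence interval -0.52 to 0.51, adjusted p = 0.997 by limma), with a sign that turned without control replicate 3 (0.09), without iodine replicate 2 (0.23) and with normexp (0.067). Probe A_55_P2046657 was not well above background on any array, with spots of 18 to 20 over a background of 15 to 16, and gives no fold. The spots of the brightest Dio1 probe were 28, 27, 23 and 25 over a background of 15 to 16, so the separation amounted to a few intensity units.

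**Figure D2:**
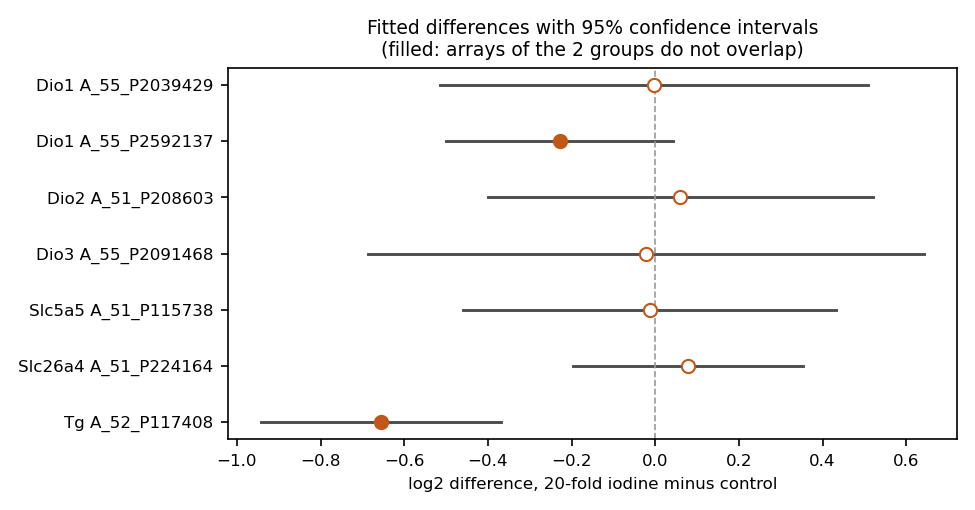
Log2 difference (20-fold iodine minus control) of the 7 member probes in the fit, with 95% confidence intervals from limma on 2 arrays per group; filled points mark probes whose arrays did not overlap between groups. The Tg interval, -0.94 to -0.37, is the one that leaves out 0 before adjustment, and the other 6 include it.

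Among the iodide transporters, Slc26a4 gave the smallest spread over arrays among the 7 fitted probes. Its log2 signals were 9.23 and 9.32 on the control arrays and 9.44 and 9.27 on the iodine arrays, with spots of 553, 570, 623 and 538 over a background of 15 to 16. The 4 arrays spanned 0.21 in all, and the groups overlapped. The difference was 0.08 (95% confidence interval -0.20 to 0.35, a fold of 0.873 to 1.28, adjusted p = 0.849 by limma), and -0.0060 without iodine replicate 2. On the same arrays the choroid plexus marker Ttr (probe A_65_P19832) spanned 12.86 to 15.23 and the meningeal transporter gene Slc22a6 6.09 to 7.58. Both were lowest on iodine replicate 2, where Slc26a4 was highest, as were the summed signals of their lists. The meningeal gene Col1a1 was instead lowest on control replicate 2 on both its probes (6.14 and 5.98). The part of these in the Slc26a4 value was not tested. Slc26a4 is represented by 1 probe, as are Slc5a5, Dio2 and Dio3, so for each of these genes no other probe bears on its identity.

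Slc5a5, the sodium iodide symporter that concentrates iodide in the thyroid, was well above background on all 4 hippocampal arrays. Its log2 signals were 4.96 and 5.37 on the control arrays and 5.09 and 5.21 on the iodine arrays, with spots of 51, 54, 48 and 47 over a background of 14 to 15. Both iodine arrays lay between the controls. The difference was -0.01 (95% confidence interval -0.46 to 0.43, adjusted p = 0.989 by limma), and it ran from -0.22 without control replicate 2 to 0.19 without control replicate 3.

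Tg, the scaffold on which the thyroid makes its hormones, was the member with the largest difference among the 7 fitted probes. Probe A_52_P117408 had processed signals of 10.4 and 9.59 on the control arrays and 6.49 and 5.46 on the iodine arrays, which on the log2 scale were 3.31, 3.24, 2.72 and 2.52. All 4 were well above background, and both iodine arrays lay below both controls. The difference was -0.66 ± 0.11 (SE, n = 2 per group), which is 1.57-fold lower in iodine (95% confidence interval of the log2 difference -0.94 to -0.37). Its unadjusted p was 0.0028 and its adjusted p 0.518 by limma, so it did not pass. Leaving out single arrays gave -0.75 to -0.56.

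The Tg signal was close to the floor of the array. Its spots had median intensities of 27, 26, 23 and 22 over local backgrounds of 16, 15, 15 and 16, and the other Tg probe, A_66_P129726, to the same transcript, was not well above background on any array (spots of 15.5 to 18 over 15 to 16). The difference was -0.02 with normexp background correction, which adds an offset of 50 before the log, and -0.08 with normexp and quantile normalization. The 4441 fitted probes within 0.5 log2 units of the Tg probe's mean had a median difference of 0.04. Astrocyte markers differed in both directions, as given beside Dio2, and the summed signal of the 4 fitted pituitary genes (5 were listed) was 516 and 1069.5 on the control arrays and 2252 and 1642 on the iodine arrays. The part of these in the Tg value was not tested. Tshr, Pax8 and Foxe1 were not well above background on any array, as given above.

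**Figure D3:**
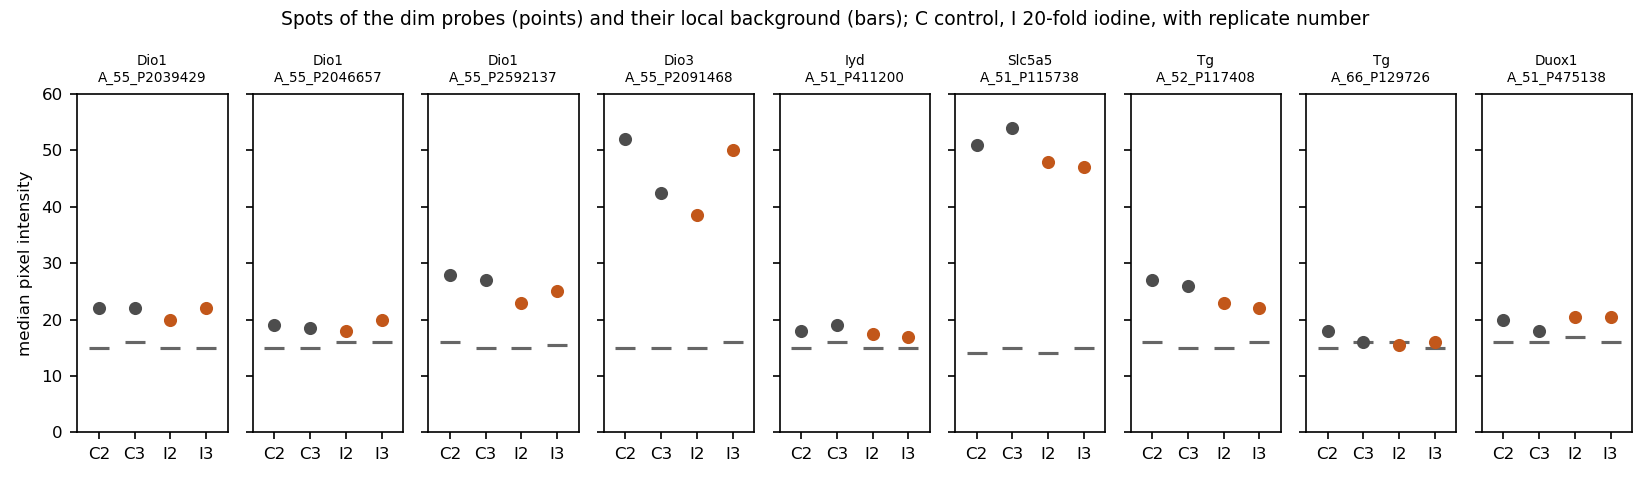
Median pixel intensity of the spots of 9 member probes (points; grey control, orange 20-fold iodine) and of their local background (bars) on the 4 arrays, C2 and C3 for control and I2 and I3 for iodine replicates 2 and 3. The detected Tg probe stands at 22 to 27 and the brightest Dio1 probe at 23 to 28, over backgrounds of 15 to 16, whereas Dio3 and Slc5a5 stand at 38.5 to 54.

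Duox1, a source of hydrogen peroxide, and Iyd were not detected. The Duox1 probe had spots of 20 and 18 on the control arrays and 20.5 and 20.5 on the iodine arrays over a background of 16 to 17, and was not well above background on any array. The Iyd probe had spots of 18, 19, 17.5 and 17 over a background of 15 to 16. Neither gives a fold, since both groups were below the limit. Duoxa1, the maturation factor of Duox1, had 1 probe well above background on all 4 arrays, A_66_P120494, with log2 signals of 2.80 and 2.80 on the control arrays and 3.26 and 2.87 on the iodine arrays (difference 0.27 ± 0.15, adjusted p = 0.674). Duoxa2 was not detected on any array.

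The wider pathway was covered by 4 lists of 38 genes, of which 31 had a fitted probe. Of their 50 fitted probes 0 passed the adjusted threshold, and 8 probes of 6 genes (16%, against 9.02% of all probes) had an unadjusted p under 0.05, 6 higher and 2 lower in iodine. The 3 Kcnq1 probes among them share 1 gene, so the 8 are not independent. The lists were chosen with earlier results of these data known, so the 16% is a description and not a test of the pathway. The median difference over the 50 was -0.03.

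In the thyroid hormone synthesis list, 9 of 15 genes had a fitted probe, and Tshr, Pax8, Nkx2-1, Foxe1 and Duoxa2 were well above background on no array. The median difference over 11 probes was -0.04, with 5 higher and 6 lower. Glis3, a transcription factor that thyroid development needs, had 0.54 ± 0.09 (SE, adjusted p = 0.518 by limma) on probe A_66_P118534. That probe was dim, with 3.34 and 3.48 on the control arrays and 3.95 and 3.95 on the iodine arrays. The brighter Glis3 probe A_66_P107331 had 0.09. Of its other probes, A_66_P138790 was well above background on 1 array and A_52_P546200 on no array. Lrp2 (megalin), an endocytic receptor that binds thyroglobulin, had -0.76 ± 0.23 (adjusted p = 0.533) on probe A_52_P285470, with 4.01 and 4.13 on the control arrays and 3.00 and 3.61 on the iodine arrays. Its probe A_66_P137745 had -0.55 ± 0.24 (adjusted p = 0.602 by limma), with 3.23 and 3.88 on the control arrays and 3.09 and 2.92 on the iodine arrays. These did not overlap either, and iodine replicate 3 was the lowest array. Another Lrp2 probe, A_51_P174921, was not well above background on any array. Lrp2 is also made by choroid plexus epithelium, whose markers were lowest on iodine replicate 2 and highest on iodine replicate 3, and this was not tested for its part in the Lrp2 values.

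In the iodide and anion transport list all 6 genes had a fitted probe, with a median of 0.05 over 9 probes. Kcnq1 is a potassium channel subunit that supports iodide uptake in the thyroid together with Kcne2. It had differences of 0.75, 0.76 and 0.75 on 3 probes (adjusted p = 0.518 for each by limma). The difference was -0.26 on the fourth probe, A_55_P2745108, which was well above background on 3 arrays. Of the 3 alike, A_66_P102591 had log2 signals of 3.15 and 3.12 on the control arrays and 3.86 and 3.89 on the iodine arrays. The Kcnq1 probes were dim, with log2 signals from 2.28 to 3.89. The lowest signal of any probe well above background was 2.09 to 2.24 on these arrays. Kcne2 had 7.68 and 7.63 on the control arrays and 6.29 and 8.30 on the iodine arrays, which overlapped. Slc5a6, a sodium-dependent vitamin transporter, had -0.08 ± 0.10 and the chloride channel Cftr -0.05 ± 0.08 on probe A_66_P103142. The other Cftr probe, A_52_P452881, was not well above background on any array.

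**Figure D4:**
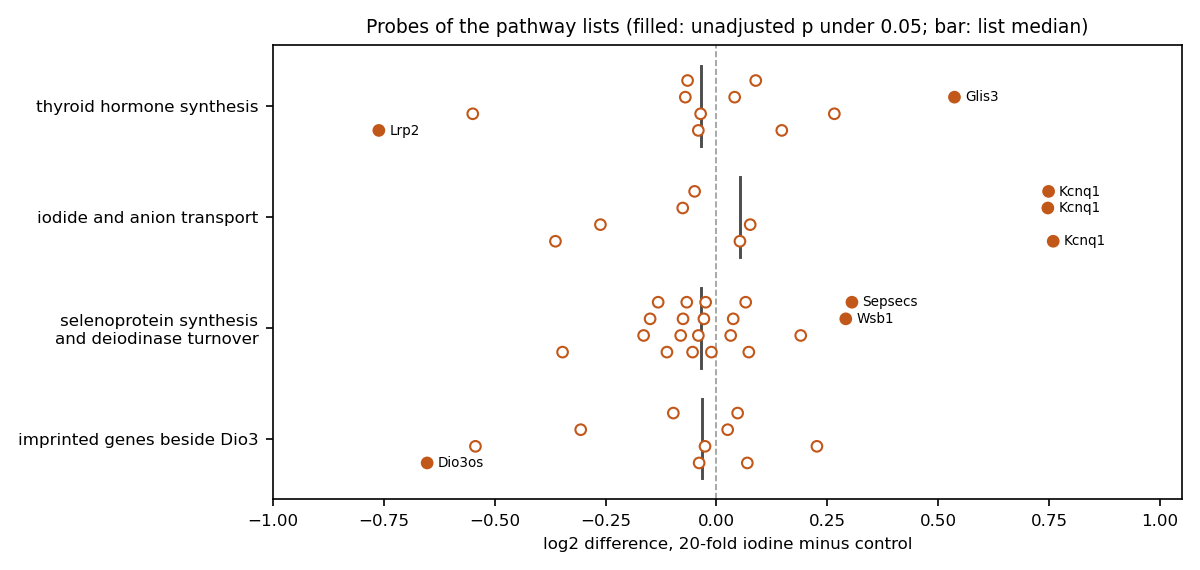
Log2 difference (20-fold iodine minus control) of each fitted probe in the 4 pathway lists; filled points have an unadjusted p under 0.05 and bars are list medians, which lie between -0.04 and 0.05. The filled points are 3 probes of Kcnq1 and 1 each of Glis3, Lrp2, Sepsecs, Wsb1 and Dio3os, on both sides of 0.

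Deiodinases need selenocysteine, and Dio2 is removed by ubiquitination. In the list for these steps all 10 genes had a fitted probe, with a median of -0.03 over 20 probes, 7 higher and 13 lower. Sepsecs, the selenocysteine synthase, had 0.31 ± 0.08 (SE, adjusted p = 0.533 by limma) on probe A_52_P406995. It had -0.35 ± 0.14 (adjusted p = 0.579 by limma) on probe A_55_P2622775, so its probes were opposite in sign. Both probes were dim, with log2 signals from 2.27 to 3.31. Wsb1, part of the ubiquitin ligase for Dio2, had 0.29 ± 0.09 (adjusted p = 0.533) on probe A_66_P123834 and 0.07 ± 0.09 on probe A_51_P271370. Marchf6, another ligase that acts on Dio2, had -0.16 ± 0.08 (adjusted p = 0.620).

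Dio3 lies in an imprinted gene cluster, and 6 of 7 other genes of that cluster had a fitted probe, with a median of -0.03 over 10 probes. Dio3os, the noncoding RNA transcribed next to Dio3 from the opposite strand, had log2 signals of 4.31 and 4.44 on the control arrays and 3.53 and 3.92 on the iodine arrays. Both iodine arrays lay below both controls, with a difference of -0.65 ± 0.16 (SE, adjusted p = 0.523 by limma), whereas Dio3 overlapped. The difference between the 2 genes was not tested. Rian, a noncoding RNA, had -0.54 ± 0.30 (adjusted p = 0.662), with control replicate 3 at 10.79 above the other 3 arrays at 9.81 to 9.94. The 4 Meg3 probes ran from -0.04 to 0.23, with the highest on probe A_55_P2736010 (adjusted p = 0.649), and Rtl1 was not detected on any array.

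For each member detected on all 4 arrays, the genes with the most similar pattern were found by the root mean square difference of array values centred on their mean, over 23610 named probes and 4 arrays. For Tg these were Kansl1l (0.02 log2), Traip (0.03) and Traf6 (0.05). For Dio2 they were Zc3h15, Pter and AU023762 (0.02 each), and for Dio3 Gabrg1, Gm12992 and Cfap69 (0.02 each). For Dio1 they were Epb41l3, Crem and Kdsr, for Slc5a5 Tmc6, Mbtd1 and Nek8, and for Slc26a4 Olfr553, Fam210b and Zfp458, all within 0.02 (0.0030 to 0.015). With 4 arrays such matches are descriptions of these arrays.

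**Figure D5:**
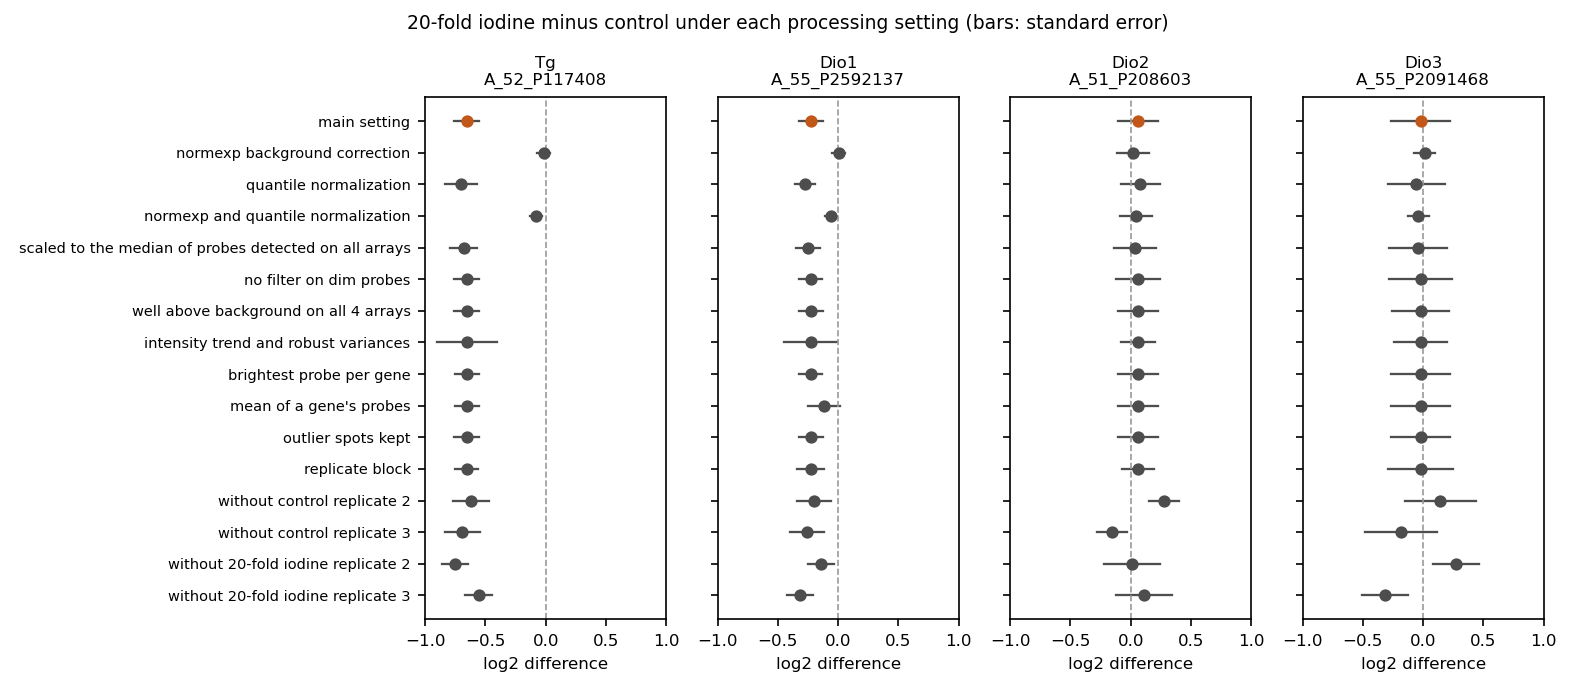
Log2 difference (20-fold iodine minus control) of 4 member probes under the main and 15 alternative settings, with standard errors as bars. The Tg points stay below 0, between -0.75 and -0.02, with the values nearest 0 in the settings that use normexp, and the Dio2 and Dio3 points change side when single arrays are left out.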

How the data were processed

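Gene expression was measured on 4 Agilent arrays (Cy3, 1 sample each). Per the file headers, the authors made the deposited intensity values with Agilent Feature Extraction 12.1.1.1, also named in the submitters' processing notes. The processed signal was background-subtracted and detrended within arrays, and not normalized between arrays. The authors' flags for background, saturation and outliers were used as deposited; no spot was saturated and no member spot was an outlier. Each member probe has 1 spot per array.

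Spots of a probe were averaged, put on the log2 scale and centred on each array's 75th percentile, with the mean percentile added back. The fit took every probe that 2 or more of the 4 arrays measured well above background, in whichever group (38231). Probes were named through RefSeq accessions (GRCm38.p6, 58.3% of 56605 named). The array header names an older build, so no probe coordinates are given, and the coordinates of the promoter windows are those of GRCm38.p6. Differences were fitted with limma 3.58.1 in R 4.3.3 (lmFit and eBayes, two-sided, Benjamini-Hochberg over all fitted probes, threshold 0.05) on files read with data.table (version 1.17.8) and tested on simulated data. Promoter windows were read with pandas 2.3.3 in Python 3.11.15, and plots drawn with matplotlib 3.10.9. Members and lists were chosen with earlier results of these data known. Named genes were all members, 3 genes per pathway list with the smallest unadjusted p, list genes on no array, the nearest patterns, and markers that a result turns on (the rule's 2 brightest markers per cell type list are given as list sums only); Kcne2 was named after its values were seen. 1 gene of the lists is not reported here. The alternatives changed the background correction, normalization, filter, variance model, probe summary, outlier spots, replicate block and single arrays; normexp used the median spot intensity, since the planned mean is not in the columns used.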

Additional observations from a re-analysis of the deposited data

How the results depend on the processing

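No member probe and no pathway list probe passed the adjusted threshold of 0.05 in any of the 15 alternatives. Over all probes 0 passed in 13 of them, 25 passed with normexp and 53 with an intensity trend and robust variances (no member among them). The median member difference of -0.01 was 0.014 with normexp and ran from -0.24 to 0.014 without single arrays. With normexp the sign turned for Dio1 probes A_55_P2039429 (0.067) and A_55_P2592137 (0.0030) and for Dio3 (0.014), and with normexp and quantile normalization for Dio1 probe A_55_P2039429 (0.0045); the cause was not tested. Without single arrays the differences ran from -0.24 to 0.23 for Dio1 probe A_55_P2039429, -0.15 to 0.28 for Dio2, -0.32 to 0.27 for Dio3, -0.22 to 0.19 for Slc5a5 and -0.0060 to 0.16 for Slc26a4, so their signs rest on single arrays. In these fits the lone array of a group was assumed to vary like the other group. In the main setting 1 of 7 member probes had an unadjusted p under 0.05, beside 3448 of all 38231. With normexp these were 0 of 7, beside 4227 of 38231. With quantile normalization they were 2 of 7 (Tg and Dio1), beside 3418 of 38231. With no filter they were 3 of 11, beside 4323 of 56605. The 3 were Tg and 2 probes higher in iodine that were not well above background on any array. By the brightest probe of each gene 1234 of 16794 genes were under that limit, and by the mean of a gene's probes 1248 of 16794. The pathway lists had 5 and 4 genes under it in these settings, against 8 probes in the main setting. These settings count genes and the main setting counts probes, so the numbers cannot be compared directly. The share of all probes lower in iodine was 47.6%, 37.0% with normexp and 54.2% with median scaling. Replicate numbers are shared between groups but not said to pair samples. The correlation of same-numbered deviations was -0.02 over 38231 probes, and with the replicate block 0 member probes passed, Tg had an adjusted p of 0.622 and 3031 probes had an unadjusted p under 0.05. A slide or scan block could not be fitted, since all arrays share 1 slide and 1 scan. The spots of the fitted Tg probe were 1.38 to 1.73 times their local background.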
